A study of Homo sapiens with 2 samples.

Results

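The genes described here are 30 components of protein folding in the endoplasmic reticulum (ER) and of the unfolded protein response (UPR), chosen by name from their known roles, with earlier results of these data known. All 30 were found among the 58735 genes of the deposited count table. Compared with MAEL WT, the MAEL KO library held much less transcript of the stress sensor gene ERN1 and of the degradation gene HERPUD1, and 1.99-fold less of the chaperone gene HSPA5, while XBP1 and most of the disulfide isomerases and lectin chaperones differed far less. Both libraries are from PLC8024, an HCC cell line that the labels also call Alexander cells and the methods PLC/PRF/5. The MAEL WT cells had the wildtype genotype and no treatment. The MAEL KO cells were transfected with a plasmid carrying Cas9 and an sgRNA against MAEL and were grown on from single clones, so differences between a clone and the parental cells cannot be told apart from the knockout. With 1 library per group there is no replicate error and no test. The 95% limits below are those of exact Clopper-Pearson intervals and cover counting error only.

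Secretory proteins enter the ER through the SEC61 channel and fold there with the help of chaperones of the Hsp70 and Hsp90 families, protein disulfide isomerases and lectin chaperones, and chains that fail to fold are sent back to the cytosol for degradation. Unfolded chains are sensed by IRE1 (gene ERN1), ATF6 and PERK (gene EIF2AK3). IRE1 splices the mRNA of XBP1 into the form that encodes an active transcription factor, ATF6 is cut to release another, and PERK slows translation while favouring that of ATF4. Liver cells secrete large amounts of protein and rely on this machinery.

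The MAEL WT library summed to 19904136 counts and the MAEL KO library to 20833332. A floor of 3 counts is therefore 0.151 CPM in the former and 0.144 CPM in the latter. MAEL itself had 1 and 0 counts, both under the floor, so the targeted gene did not check the labels. All 16 hepatocyte markers examined were detected in both libraries and all had log2 fold changes above 0, with a median of 1.29 and 11 of 16 past 1 (8 of 16 with total counts), where 10.2% of all genes tested were higher past 1, and their summed share went from 1.99% to 3.39% of the counts. Their part in the results below was not tested. Of the leukocyte, endothelial and mesenchymal lists, 3 of 8, 2 of 7 and 3 of 8 markers reached 10 counts, and the defining genes PTPRC (3 and 0 counts), VWF (1 and 0) and DCN (3 and 0) were at or under the floor. Other genes of these lists were counted, LYZ with 1251 and 737 counts, PECAM1 with 348 and 392, PDGFRB with 122 and 29, COL1A1 with 92 and 11 and COL3A1 with 54 and 136. Fold changes are given on the log2 scale for MAEL KO against MAEL WT, after TMM normalization and with 1 added to the normalized counts.

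Of the 30 genes, 29 had at least 10 counts in at least 1 library. DERL3 did not, with 5 counts in MAEL WT and 6 in MAEL KO. Of the 29, 19 had a log2 fold change below 0, whereas 52% of all 17887 genes tested did. The median of the 29 was -0.37 and that of all genes tested was -0.04. At a log2 threshold of 1, 5 genes were lower in MAEL KO (DNAJB9, ERO1B, HERPUD1, ERN1 and ATF6), which is 17.2% of the members against 16.5% of all genes tested. The share was thus near that of all genes tested, but above the 5.08% of the genes with at least 1000 counts. No member was higher past 1, against 10.2% of all genes. At the log2 threshold of 2 that the methods use, 2 members were lower, HERPUD1 and ERN1, against 5.64% of all genes, and 0 were higher, against 2.16%. Each of the 29 had over 1000 counts in at least 1 library. Among the 5516 genes at that depth, 5.08% were lower and 10.5% higher past 1, 1.05% were lower and 1.52% higher past 2, 38.2% were below 0 and the median was 0.18. Scaling by total counts in place of TMM moved the median of all genes tested from -0.04 to -0.31, and then 10 members were lower past 1.

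**Figure D1:**
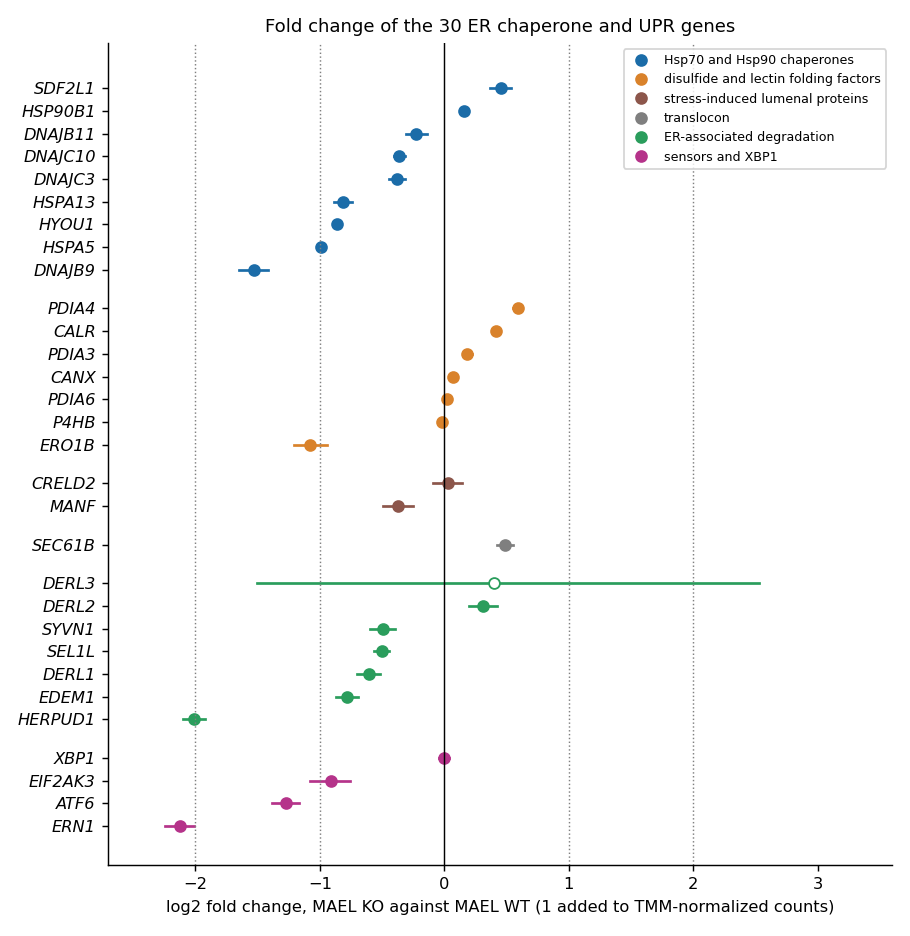
Log2 fold change (x axis) of each of the 30 genes (y axis), coloured by class, with the exact 95% counting interval as a line and dotted lines at the thresholds of 1 and 2. ERN1 at -2.13 and HERPUD1 at -2.01 are farthest to the left and PDIA4 at 0.59 is farthest to the right among the 29 tested genes. The open point is DERL3, which was not tested. With total counts the points of HSP90B1, PDIA3, PDIA6, CANX and CRELD2, which lie above 0 here, fall below 0.

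The sensor genes held the lowest values as a class. ERN1, which encodes the kinase and RNase IRE1, lies at chr17:64039142-64130819 of GRCh38, minus strand. It had 3779 counts in MAEL WT and 748 in MAEL KO, a log2 fold change of -2.13 (95% limits -2.24 and -2.01), or 4.37-fold lower. The value ranged from -2.40 to -2.06 over the processing alternatives. ATF6, the sensor that is itself processed into a transcription factor, lies at chr1:161766294-161964070, plus strand. Its counts were 2574 and 919, a log2 fold change of -1.27 (95% limits -1.39 and -1.17). EIF2AK3, which encodes the eIF2alpha kinase PERK, lies at chr2:88556741-88627576, minus strand. It had 1006 and 461 counts, a log2 fold change of -0.91 (95% limits -1.08 and -0.75), just short of the threshold of 1, and -1.19 with total counts. The genes of all 3 sensors were thus lower in the MAEL KO library under each scaling.

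XBP1, whose mRNA is the substrate of IRE1, did not share this. It had 10801 counts in MAEL WT and 9334 in MAEL KO, which are 10068 and 10067 normalized counts, a log2 fold change of -0.00 (95% limits -0.04 and 0.04). The equality rests on the scaling, as XBP1 was at -0.28 with total counts. Over the alternatives it ranged from -0.28 to 0.19. A ratio within a library needs no scaling between libraries. The ratio of ERN1 to XBP1 counts was 0.35 in MAEL WT and 0.0801 in MAEL KO, a log2 difference of -2.13 (95% Wald limits for counting error -2.25 and -2.01). Counts per gene do not separate the spliced from the unspliced XBP1 mRNA, so IRE1 activity was not measured here.

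HSPA5 encodes BiP, the Hsp70 of the ER lumen, which binds unfolded chains and holds the sensors inactive. The gene lies at chr9:125234853-125241330, minus strand. It had 63389 counts in MAEL WT, where it ranked 18 among all genes by count, and 27544 in MAEL KO, where it ranked 63. The log2 fold change was -0.99 (95% limits -1.01 and -0.97), at the edge of the threshold of 1, and it ranged from -1.27 to -0.99 over the alternatives. HYOU1, a large Hsp70-like protein that exchanges nucleotide on BiP, had 25112 and 11904 counts, a log2 fold change of -0.87 (95% limits -0.90 and -0.84). Both of these abundant transcripts were therefore lower in MAEL KO by a similar amount.

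HSP90B1 encodes GRP94, the Hsp90 of the ER, and was close to its MAEL WT level. It had 27674 counts in MAEL WT and 26746 in MAEL KO, a log2 fold change of 0.16 (95% limits 0.14 and 0.19) that became -0.12 with total counts. The ratio of HSPA5 to HSP90B1 counts was 2.29 in MAEL WT and 1.03 in MAEL KO, a log2 difference of -1.15 (95% Wald limits -1.18 and -1.12). HSPA5 took 19.2% of the counts of the 30 genes in MAEL WT (95% limits 19% and 19.3%) and 11% in MAEL KO (95% limits 10.9% and 11.2%). The 30 genes together went from 308520 to 269149 normalized counts, a ratio of 0.872. Without HSPA5 the ratio was 0.96. Scaled by total counts, the tested members together went from 16628 to 11979 CPM and HSPA5 from 3185 to 1322 CPM, so its share of the difference depends on the scaling.

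Among the J-domain co-chaperones, which bring clients to BiP and stimulate its ATPase, the values were unequal. DNAJB9, which encodes ERdj4, lies at chr7:108569568-108574850, plus strand. It had 2560 counts in MAEL WT and 764 in MAEL KO, a log2 fold change of -1.53 (95% limits -1.65 and -1.42). Exons of DNAJB9 overlap those of PNPLA8 (1701 and 978 counts) and THAP5 (1148 and 959) on the other strand, and whether counting used strand is not given in the sources used here. The 40 nearest tested genes around DNAJB9 had a median of -0.42, and relative to them DNAJB9 was at -1.11.

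DNAJC3, which encodes p58IPK, an inhibitor of PERK and a co-chaperone, had 5068 and 3363 counts, a log2 fold change of -0.38 (95% limits -0.44 and -0.32). DNAJC10, which encodes the disulfide reductase ERdj5, had 11152 and 7497 counts and was at -0.36 (95% limits -0.40 and -0.32). DNAJB11, which encodes ERdj3, a co-chaperone that is also secreted, had 2621 and 1938 counts and was at -0.23 (95% limits -0.31 and -0.14). These 3 genes were lower in MAEL KO by far less than DNAJB9, and they stayed below 0 under every alternative. Relative to their 40 nearest tested genes DNAJC3 and DNAJB11 were each at -0.14 and DNAJC10 at -0.26.

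HSPA13, an Hsp70-like protein of microsomes, had 4483 counts in MAEL WT and 2204 in MAEL KO, a log2 fold change of -0.81 (95% limits -0.89 and -0.74). Its 40 nearest tested genes on chromosome 21 had a median of -0.53 themselves, and relative to them HSPA13 was at -0.28. SDF2L1, a lumenal partner of ERdj3, was on the other side, with 2144 and 2537 counts and a log2 fold change of 0.45 (95% limits 0.37 and 0.54), and it remained above 0 under every alternative. Over the 9 genes of the Hsp70 and Hsp90 systems, 7 were lower and 2 were higher in MAEL KO, with a median of -0.38. With total counts 8 were lower and 1 was higher, with a median of -0.66. Among all genes tested 52% were lower, and among those with at least 1000 counts 38.2%.

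The disulfide isomerases and the calnexin cycle differed from that class. These proteins form and reshuffle disulfide bonds and retain glycoproteins until they are folded. P4HB, which encodes PDI, had 25816 counts in MAEL WT and 22005 in MAEL KO, a log2 fold change of -0.02 (95% limits -0.05 and 0.01). PDIA6, which encodes the isomerase P5, had 16555 and 14528 counts and was at 0.02 (95% limits -0.01 and 0.05). The intervals of both include 0, but with total counts P4HB was at -0.30 and PDIA6 at -0.25.

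PDIA3, which encodes the glycoprotein isomerase ERp57, had 13229 counts in MAEL WT and 12979 in MAEL KO, a log2 fold change of 0.18 (95% limits 0.15 and 0.22) that became -0.09 with total counts. Its processed copy PDIA3P1 had 763 and 571 counts, so a small part of its reads may be assigned to either. PDIA4, which encodes ERp72, had 11116 and 14456 counts and the highest value of the 29 genes, 0.59 (95% limits 0.55 and 0.63). It was above 0 under every alternative, from 0.31 to 0.91.

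CALR, the soluble lectin chaperone calreticulin, had 23076 counts in MAEL WT and 26633 in MAEL KO, a log2 fold change of 0.42 (95% limits 0.39 and 0.44), and stayed above 0 under every alternative. Its membrane-bound counterpart CANX, calnexin, had 50176 and 45461 counts and was at 0.07 (95% limits 0.05 and 0.09), or -0.21 with total counts. The ratio of HSPA5 to CALR counts was 2.75 in MAEL WT and 1.03 in MAEL KO, a log2 difference of -1.41 (95% Wald limits -1.44 and -1.38). The exception in this class was ERO1B, an oxidase that recharges PDI, which had 1589 and 651 counts and a log2 fold change of -1.08 (95% limits -1.21 and -0.94). The median of the 7 folding factors was 0.07, or -0.21 with total counts.

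CRELD2 and MANF encode small lumenal proteins that are secreted under ER stress. CRELD2 had 1320 counts in MAEL WT and 1162 in MAEL KO, a log2 fold change of 0.03 (95% limits -0.09 and 0.14), which includes 0. Its exons overlap those of ALG12 on the other strand (569 and 363 counts). MANF had 1459 and 973 counts and was at -0.37 (95% limits -0.49 and -0.26). SEC61B, the beta subunit of the translocation channel, had 3305 and 4000 counts and was at 0.49 (95% limits 0.42 and 0.55), above 0 under every alternative.

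The degradation genes were mostly lower in MAEL KO. HERPUD1, a membrane protein that organizes the degradation complex and is a known target of the UPR, lies at chr16:56932048-56944863, plus strand. It had 5551 counts in MAEL WT and 1189 in MAEL KO, a log2 fold change of -2.01 (95% limits -2.10 and -1.92), or 4.04-fold lower. Its interval spans the threshold of 2, and the value was -1.84 relative to its 40 nearest tested genes. SEL1L, the adaptor of the ubiquitin ligase HRD1, had 6285 and 3830 counts and was at -0.50 (95% limits -0.56 and -0.45). SYVN1, which encodes HRD1, had 2209 and 1353 counts and was also at -0.50 (95% limits -0.60 and -0.40).

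The ligase and its adaptor thus kept their proportion, with a SEL1L to SYVN1 count ratio of 2.85 in MAEL WT and 2.83 in MAEL KO (log2 difference -0.01, 95% Wald limits -0.12 and 0.11). The ratio of HERPUD1 to SEL1L, in contrast, was 0.883 and 0.31, a log2 difference of -1.51 (95% Wald limits -1.62 and -1.40). Exons of SYVN1 overlap those of FAU on the same strand (3636 and 4534 counts) and of MRPL49 on the other strand (1435 and 1165), so its counts are less certain.

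EDEM1, which hands mannose-trimmed glycoproteins to the degradation complex, had 3041 counts in MAEL WT and 1529 in MAEL KO, a log2 fold change of -0.78 (95% limits -0.87 and -0.69), or -1.06 with total counts. The 3 derlins are membrane proteins of the retrotranslocation site. DERL1 had 2589 and 1468 counts and was at -0.61 (95% limits -0.70 and -0.52), whereas DERL2 had 1287 and 1381 and was at 0.31 (95% limits 0.20 and 0.42). DERL1 and DERL2 were therefore on opposite sides of 0, which held under every alternative. Exons of DERL2 overlap those of MIS12 on the other strand (781 and 565 counts), and exons of DERL1 those of TBC1D31 (347 and 427). No alternative addressed such overlaps. The median of the 6 tested degradation genes was -0.56.

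Levels per length were compared with the deposited FPKM values. In MAEL WT HSPA5 was the highest of the 30 genes at 742 FPKM, followed by CALR at 389, CANX at 368 and HSP90B1 at 269. In MAEL KO CALR was highest at 518, followed by CANX at 385, HSPA5 at 372 and HSP90B1 at 300.5. HSPA5 thus passed from rank 1 to rank 3 of the members. ERN1 went from 15.9 to 3.63 FPKM, ATF6 from 14.9 to 6.14 and EIF2AK3 from 8.46 to 4.47. Of the 12 members above 50 FPKM in MAEL WT, 8 had a log2 fold change above 0, and the 4 below 0 were HSPA5, HYOU1, P4HB and XBP1. Of the 17 tested members at or under that level, 15 were below 0 and CRELD2 and DERL2 were above it. For scale, 38.2% of the genes with at least 1000 counts and 52% of all genes tested were below 0. The split of the 12 was near that of the genes with at least 1000 counts. With total counts HSP90B1, PDIA3, PDIA6, CANX and CRELD2 move to the group below 0. The level of 50 FPKM was chosen after the values had been seen.

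**Figure D2:**
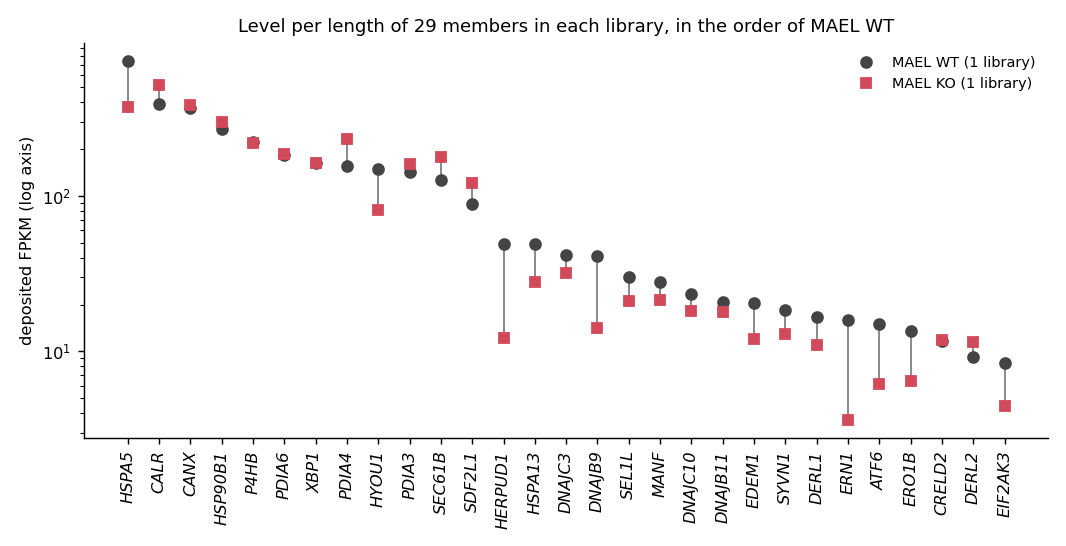
Deposited FPKM (y axis, log scale) of the 29 tested genes in the MAEL WT library (circles) and the MAEL KO library (squares), in the order of the MAEL WT level (x axis). The longest downward steps are at HERPUD1 (49.2 to 12.2 FPKM), DNAJB9 (41.3 to 14.2) and ERN1 (15.9 to 3.63), while CALR (389 to 518) and PDIA4 (155 to 233) step up.

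The promoters of many of these genes carry the ER stress element (ERSE), which ATF6 binds together with NF-Y, and its relative ERSE-II. To see whether the genes that were lower share such an element, RefSeq promoter windows on GRCh38.p14 were searched, each of 300 bases, with 250 before and 50 after a transcript start. Windows were present for 27 of the 30 genes. Searches covered both strands for ERSE (CCAAT and CCACG with 9 bases of any kind between them), ERSE-II (ATTGG and CCACG with 1 base between them), the UPR element bound by XBP1 and ATF6 (UPRE, TGACGTGG or TGACGTGA), and the core of the C/EBP-ATF response element bound by ATF4 (CARE, TGATGCAA). ERSE and ERSE-II share the letters CCACG, and the reverse strand of TGACGTGG holds them as well. A match is a description of the letters and not a binding site. Only exact matches were counted, and near-matches were not searched.

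ERSE matched in 8 of the 27 genes (29.6%), against 0.0916% of the 27305 genes with a window. The members were chosen from known roles that include the UPR, so this excess is not a test. These 8 genes were CALR, CANX, CRELD2, ERO1B, HSP90B1, HSPA5, PDIA6 and XBP1. Their median log2 fold change was 0.02, with 3 of 8 below 0, whereas the 19 other genes had a median of -0.50, with 15 below 0. The share below 0 was 52% over all genes tested and 38.2% over those with at least 1000 counts, so that of the 8 was near the latter. With total counts the median of the 8 was -0.25 with 7 below 0, and that of the 19 was -0.77 with 15 below 0, so the contrast in the share below 0 rested on the scaling. The genes holding an ERSE thus included HSPA5 at -0.99 as well as CALR at 0.42. The sites of 5 of them are shown, from those with a low to those with a high fold change, 5′ to 3′ on the strand of the gene, with the fixed letters of the element in capitals. CGTGG followed by ATTGG is the element on the other strand. For HSP90B1, which has 2 sites, and XBP1, short stretches around the sites are given. They lie at chr9:125241351-125241449 on the minus strand (HSPA5), chr22:28800598-28800626 on the minus strand (XBP1), chr22:49918514-49918612 on the plus strand (CRELD2), chr12:103930211-103930239 and chr12:103930316-103930344 on the plus strand (HSP90B1) and chr19:12938359-12938442 on the plus strand (CALR).
HSPA5: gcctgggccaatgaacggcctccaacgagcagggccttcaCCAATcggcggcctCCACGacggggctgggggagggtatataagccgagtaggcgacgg
XBP1: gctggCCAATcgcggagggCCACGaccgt
CRELD2: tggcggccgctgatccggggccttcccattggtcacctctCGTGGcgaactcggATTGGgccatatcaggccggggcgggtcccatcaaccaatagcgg
HSP90B1 distal: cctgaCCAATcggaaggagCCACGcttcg
HSP90B1 proximal: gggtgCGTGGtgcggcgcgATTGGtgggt
CALR: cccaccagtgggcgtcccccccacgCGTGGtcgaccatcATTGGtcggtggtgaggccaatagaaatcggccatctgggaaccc

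ERSE-II matched in 3 of the 27 genes (11.1%), against 0.0696% of all genes with a window. They were HERPUD1 at -2.01, HYOU1 at -0.87 and SDF2L1 at 0.45, so these genes also lay on both sides of 0. HYOU1 had 2 such sites, the first of them overlapping a TGACGTGG. HERPUD1 was the only member with the letters TGATGCAA, here as TTGCATCA on the other strand, which 1.08% of all genes with a window hold. TGACGTGG was also found in DNAJC10, and TGACGTGA in no member. The windows of ERN1, ATF6, EIF2AK3 and DNAJB9 held no exact match to these elements, and 15 members in all had a window without any. The letters CCACG alone were in 21 of the 27 genes (77.8%), against 42.1% of all genes with a window. The stretches lie at chr16:56931956-56932045 on the plus strand (HERPUD1), chr11:119057234-119057433 on the minus strand (HYOU1) and chr22:21642074-21642164 on the plus strand (SDF2L1), with the matched letters in capitals.
HERPUD1: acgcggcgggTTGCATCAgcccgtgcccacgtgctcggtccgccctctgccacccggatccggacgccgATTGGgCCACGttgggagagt
HYOU1: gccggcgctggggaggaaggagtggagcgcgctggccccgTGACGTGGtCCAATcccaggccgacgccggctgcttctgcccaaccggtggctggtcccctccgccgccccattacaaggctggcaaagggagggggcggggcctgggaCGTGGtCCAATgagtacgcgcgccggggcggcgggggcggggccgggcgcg
SDF2L1: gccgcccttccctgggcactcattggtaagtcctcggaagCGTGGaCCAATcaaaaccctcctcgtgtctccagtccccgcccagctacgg

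**Figure D3:**
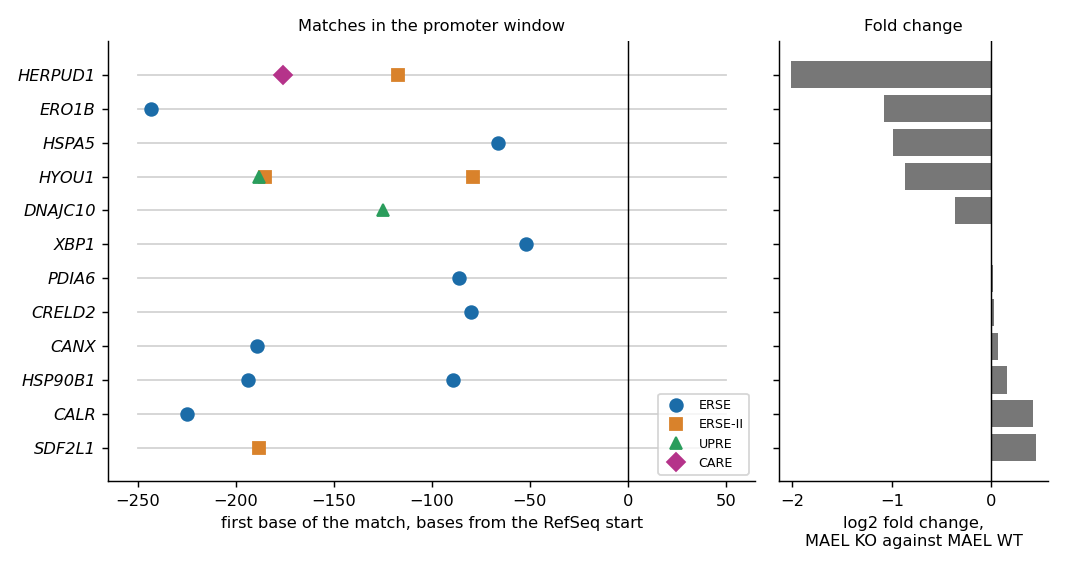
Left, position of the first base of each match (x axis, bases from the RefSeq transcript start) in the 12 members with a match, by element, with 1 window drawn per gene. Right, their log2 fold changes as bars from 0. Genes with an ERSE (circles) span from ERO1B at -1.08 to CALR at 0.42, and the bar of HERPUD1, with an ERSE-II and a CARE match, is the longest at -2.01. With total counts PDIA6, CRELD2, CANX and HSP90B1 turn from above to below 0.

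The other genes of the pathway were taken from lists of known components, none of which are members. The PERK arm, a list of ATF4, CHOP and other genes assigned to this arm, stood lowest. RNA values of these genes do not measure PERK activity, and what else acts on them was not tested. All 24 genes of this list were tested, 22 were below 0, 17 were lower past 1 and 9 past 2, and the median was -1.53. Of all genes tested 52% were below 0, 16.5% lower past 1 and 5.64% lower past 2, and among those with at least 1000 counts 38.2%, 5.08% and 1.05%. The median was -1.80 with total counts. CHAC1, which degrades glutathione, was at -3.72, with 2016 counts in MAEL WT and 131 in MAEL KO. NUPR1, a stress-induced chromatin protein, went from 6923 to 534 counts, at -3.48, and SESN2, an inhibitor of mTORC1, from 3476 to 464, at -2.69. At the other end, BCL2L11, which encodes the death protein BIM, was at 0.74, ATF5 at 0.16 and ATF4 at -0.24, the last with 12198 and 8922 counts. ATF4 is controlled mainly at translation, which these libraries do not measure. DDIT3, which encodes CHOP, had 1122 and 242 counts, with 95% limits of -2.21 and -1.80, and PPP1R15A, which encodes the phosphatase subunit GADD34 that ends the PERK signal, was at -2.36 with 4497 and 757 counts. The last 2 genes were named after their values had been seen.

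The remaining components of folding and degradation had medians nearer to that of all genes tested, of which 16.5% were lower and 10.2% higher past 1. Of 48 tested ER folding factors, 3 were lower and 1 higher past 1, with a median of -0.09. Their extremes were CLGN, a calnexin homologue, at -2.47 (2849 and 445 counts), the thiol oxidase QSOX1 at -1.68 and CRELD1 at -1.30, against ERO1A at 1.96 (4423 and 14859 counts), TMX1 at 0.93 and TXNDC16 at 0.86. The paralogues ERO1A and ERO1B, which both oxidize PDI, were therefore on opposite sides of 0. Of 49 other degradation genes, 1 was lower and 3 were higher past 1, with a median of 0.06, or -0.22 with total counts. SEL1L3 was lowest at -1.64, and FAM8A1, a cofactor of HRD1, was highest at 1.29 with 2073 and 4375 counts.

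None of 38 other genes of the translocon, the signal peptidase and glycosylation passed 1 in either direction. Their median was 0.17, or -0.10 with total counts, and they ranged from -0.59 to 0.87. Of all genes tested 16.5% were lower and 10.2% higher past 1, and of those with at least 1000 counts 5.08% and 10.5%. Among 28 other sensors and regulators 2 were lower and 1 higher past 1, with a median of -0.13. CREB3L1, an ER-anchored transcription factor that is cut like ATF6, was at -2.75 (418 and 53 counts), whereas its liver-enriched relative CREB3L3 was at 1.78 (207 and 618 counts). ERN2, the epithelial paralogue of ERN1, had 20 and 6 counts.

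**Figure D4:**
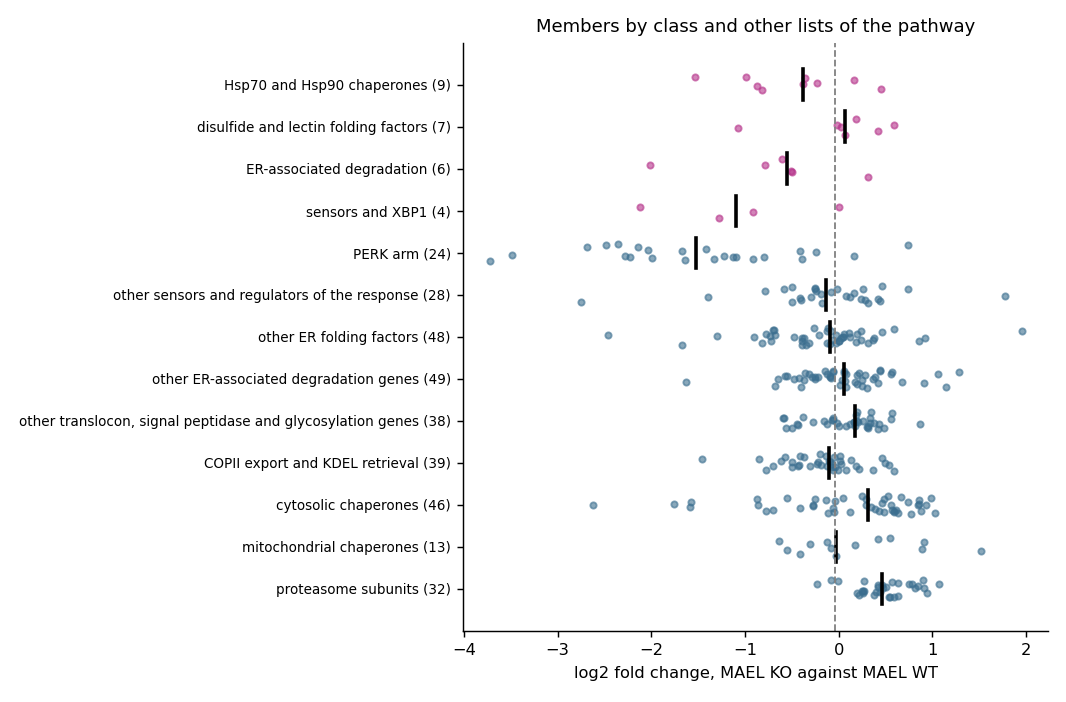
Log2 fold change (x axis) of single genes (points) in 4 classes of members and in 9 other lists (y axis, with the number of genes tested in brackets). Black bars are medians and the dashed line is the median of all genes tested, -0.04. The PERK arm lies farthest to the left with a median of -1.53, followed by the sensors and XBP1 at -1.09. With total counts the medians of the disulfide and lectin folding factors (-0.21), the other degradation genes (-0.22) and the other translocon genes (-0.10) turn from above to below 0.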

How the data were processed

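RNA from 1 MAEL WT and 1 MAEL KO library was sequenced on a HiSeq platform. What the authors deposited were raw read counts for each gene and FPKM values, scaled by gene length and a library size. The submitters' processing notes name HISAT2 2.0.5, featureCounts 1.5.0-p3 and the build hg19, while the 58735 genes carry GRCh38 coordinates, which for all 30 members equal those of GENCODE 29.

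TMM factors were computed with edgeR 4.0.16 under R 4.3.3, and DESeq2 1.42.0 size factors served as an alternative. A gene was tested from 10 counts in either library, and 1 was added before the log2 fold change. Python 3.11.15 (SciPy 1.17.1, NumPy 2.4.6, pandas 2.3.3) gave the limits at 95% and the summaries, and matplotlib 3.10.9 the plots. The fold change and its limits were tested on simulated counts with the scaling factors taken as known, so the scaling itself was not tested. Promoter windows came from RefSeq. Protein sequences were not used here. HSPA14 has more than 1 row in the table, and that with most counts was used. All 30 members are named, as are up to 3 genes at each end of the other lists and genes that overlap or copy a member. DDIT3, PPP1R15A and some markers of other cell types were also named, chosen after their values had been seen. The members and lists were chosen with earlier results of these data known.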

Additional observations from a re-analysis of the deposited data

How the results depend on the processing

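With 1 library per group, leaving out a library was not possible. No paired analysis was possible because each group has 1 library. Values were recomputed with the scaling of DESeq2, with total counts, from deposited FPKM with 0.01 added, with 0.1 or 5 in place of the added 1, with minimums of 1 or 100 counts, with protein-coding genes alone, and after subtraction of the median of the chromosome or of 20 tested genes on each side. A minimum of 1000 counts was added after the data had been seen. The number of members lower past 1 was 5 and became 10 with total counts, a scaling that shifts all genes. The number lower past 2 was 2 and became 1 with the neighbour median subtracted, since HERPUD1 moved to -1.84. Elsewhere the counts past either threshold stayed within 1.5 times, and the median of the 29 genes ranged from -0.65 with total counts to -0.26 with the neighbour median subtracted. Over 319 values of single members, 67 left their counting limits and 10 switched sign, 5 of the latter with total counts. The 319 include the minimums of 1, 100 and 1000 counts, which cannot alter the value of a single gene, so 67 of 319 is no measure of robustness. With total counts every tested member left its limits. The other moves came with protein-coding genes alone and with the subtraction of the chromosome or neighbour median. None of the values that switched sign had passed 1.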

Other observations

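Chaperones outside the ER were compared as values. Of all genes tested 52% were below 0, and of those with at least 1000 counts 38.2%. Of 46 tested cytosolic chaperones and cofactors, 28 were above 0 and 18 below, a split near that of the genes with at least 1000 counts. The median of the 46 was 0.32, or 0.04 with total counts. HSPB8 was lowest at -2.62 (269 and 37 counts), followed by the heat-inducible HSPA1B at -1.76 (1227 and 312 counts), and HSPB11 was highest at 1.03. Of 13 mitochondrial chaperones and proteases, HSPE1 was highest at 1.52 (1233 and 3053 counts) and HSPD1, its partner chaperonin, was at 0.90 (22096 and 35538 counts), while the median was -0.02.

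Of 32 proteasome subunits, 29 were above 0 and 3 below, with a median of 0.46, or 22 above 0 and a median of 0.19 with total counts. PSMD1 was highest at 1.07. For comparison, 52% of all genes tested were below 0, and 38.2% of those with at least 1000 counts. Among 39 genes of COPII export and of retrieval to the ER, the median was -0.10 and 1 gene was lower past 1, against 16.5% of all genes tested. It was KDELR3, a receptor for the retrieval signal of lumenal chaperones, at -1.46 (576 and 180 counts).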
